A study of Oryza sativa Japonica Group with 28 samples.

Results

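Nucellar epidermis (NE) was set against endosperm (EN) in rice grains at 16 days after flowering (DAF). The members were taken by their sample labels: 3 libraries of NE (MM04, MM17 and MM18) and 2 libraries of EN (MM17 and MM18), which makes 5 of the 28 libraries of the series. The series covers cross cells (CC), NE, ovular vascular trace (OVT) and EN at 4, 8 and 16 DAF and the aleurone layer (AL) at 16 DAF. All grains came from the unmodified cultivar Nipponbare, grown in hydroponic solution at 28 °C, with no treatment or mutant among the groups. Tissue was cut from frozen sections by laser, 3 grains served for each preparation, and cDNA was amplified by 15 cycles of PCR with no molecular tags before single-end sequencing of 126 bp. The study calls the libraries of a group biological replicates, but the labels do not say that they came from separate plants, so the p-values below measure the spread between libraries. The column names also mark libraries as low or mid (NE MM04 mid, NE MM17 low, NE MM18 low, EN MM17 low, EN MM18 mid), and the sources used here do not explain these marks.

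The nucellar epidermis is a maternal cell layer around the filial tissues of the grain. Sucrose, amino acids and minerals unloaded from the vascular trace have no symplastic path into the endosperm, so they must leave maternal cells such as those of this layer by export across a membrane before the endosperm takes them up. The starchy endosperm is the store of the grain and fills its cells with starch granules and with protein bodies of glutelins and prolamins. The comparison asks which genes tell the maternal layer from the storage tissue when filling is well advanced.

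The reads estimated from the values numbered 15099423 (NE MM04), 19297611 (NE MM17), 97249910 (NE MM18), 31124004 (EN MM17) and 10179037 (EN MM18). A value of 0 allowed up to 3 reads, which is 0.132 to 1.51 units in the NE libraries and 4.89 and 11.5 units in the EN libraries, for counting error only. Genes above 0 numbered 16611 to 25043 in NE libraries and 12585 and 12838 in EN libraries. The 10 most abundant genes took 7.14 to 24.6% of the signal in NE libraries, against 51.4 and 41.8% in EN libraries. Each NE library correlated at least as closely with a library of another tissue as with another NE library. Over log2 values NE MM17 correlated with AL MM17 at 0.99 and with NE MM04 and NE MM18 at 0.77 and 0.78. NE MM18 correlated with AL MM04 at 0.853, with CC MM18 at 0.837 and with NE MM04 at 0.73. NE MM04 correlated with the AL libraries at 0.76 to 0.775. The EN libraries correlated with each other at 0.76, and NE with EN libraries at 0.54 to 0.70. These correlations run across genes, which are not independent replicates. The counts below are given also without NE MM17, and the call of each gene named below held without it unless stated otherwise. Holding without NE MM17 was part of the choice of the genes with the widest differences and of the transcription factor genes.

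The storage protein share also put NE MM17 at the level of AL MM17. The aleurone and late seed markers did not set NE MM17 apart from NE MM04. The 18 storage protein genes took 6.13% (NE MM04), 29.9% (NE MM17) and 1.17% (NE MM18) of the signal in NE, against 59.6 and 50.1% in EN, and took 2.06, 30.7 and 30.7% in AL libraries MM04, MM17 and MM18. The 12 genes listed as aleurone and late seed markers summed to 2.03, 1.92 and 0.854% in NE, against 0.000524 and 0.0519% in EN, and 1.76, 2.03 and 1.59% in AL. None of these 12 was at 0 in NE MM04 and NE MM17 and 1 was at 0 in NE MM18, against 6 at 0 in EN MM17 and 1 in EN MM18. All 4 genes of the nucellus list were at 0 in both EN libraries, while OsMADS29, a MADS-box factor known from nucellus breakdown, was above 0 in all NE libraries. OsMADS29 was also at 233, 20.9 and 3.37 units in AL libraries MM04, MM17 and MM18. The 4 genes summed to 292 and 886 units in CC libraries MM17 and MM18 of 16 DAF, against 605, 35.8 and 1122 in NE. The 3 other genes of that list, for which the study designed primers, were at 0 or at 1.76 or less in NE at 16 DAF, except Os08g0398500 (228, 0 and 5.07 in NE MM04, MM17 and MM18). The 61 photosynthesis genes, a sign of green pericarp, summed to 0.0202, 0.00409 and 0.0271% in NE, against 0.000392 and 0.000531% in EN, where 57 and 58 of them were at 0, and to 0.122 and 0.207% in CC at 16 DAF. Fewer cells of a type and less RNA per cell cannot be told apart in such captured tissue, and the part of storage protein RNA or aleurone RNA in any difference below was not tested.

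**Figure D1:**
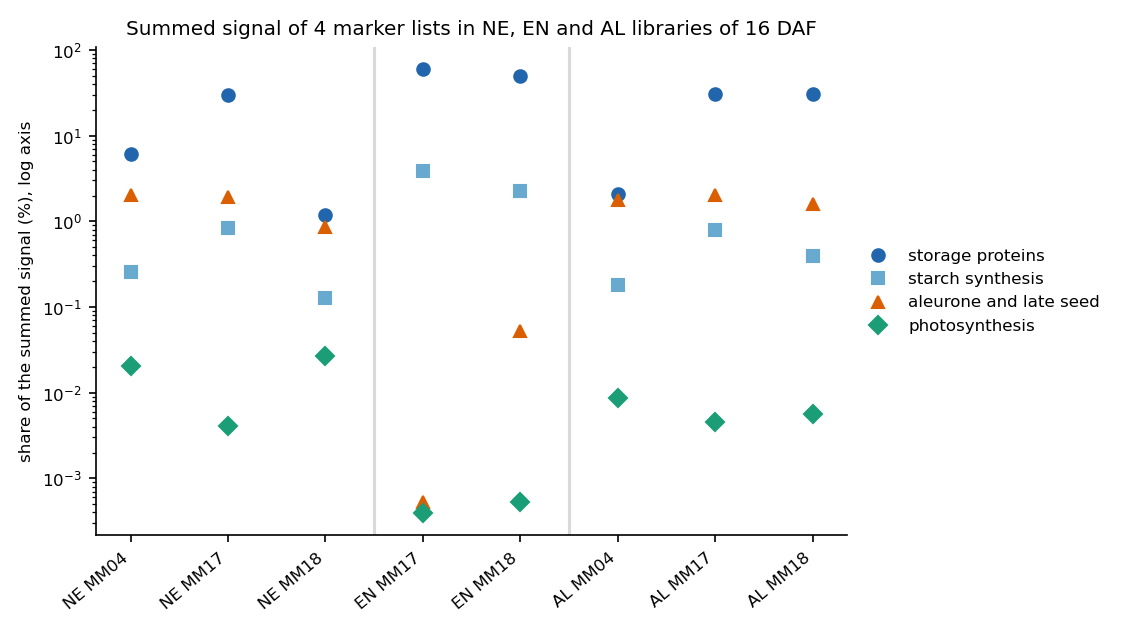
Share of the signal (percent, log axis) taken by the marker lists in each NE, EN and AL library of 16 DAF, 1 point per library. The storage protein share was 6.13, 29.9 and 1.17% in NE libraries MM04, MM17 and MM18, against 59.6 and 50.1% in EN, and NE MM17 lay at the level of AL MM17 (30.7%).

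Of 27529 genes tested, 1838 were higher and 1185 were lower in NE than in EN at an adjusted p under 0.05 (limma's moderated test, Benjamini-Hochberg adjustment over all genes), which is 11.0% of all genes tested, with 6.68% higher and 4.30% lower. Without NE MM17, 1902 genes were higher and 1109 lower (6.91 and 4.03%). Of the calls, 1464 higher and 977 lower were shared by both fits, and the values of 1440 and 968 of these did not overlap between all NE and all EN libraries, a state that 19.8% (NE above) and 9.86% (NE below) of all tested genes shared. With NE MM04 and NE MM18 alone, 25.5% of all tested genes lay above both EN libraries and 11.4% below. Both EN libraries were at 0 for 751 of the 1838 genes called higher, against 12004 of all 27529 genes tested. All NE libraries were at 0 for 133 of the 1185 called lower, against 2934 of all genes tested. Being at 0 was thus about as common among all genes tested as among those called. NE MM17 was the lowest NE library in 798 of the 1838 higher genes and the highest NE library in 559 of the 1185 lower genes, ties included. The same counts over all tested genes were not made, so these numbers have no baseline to be read against. The median difference over all genes was 0.28 on the log2 scale (0.20 without NE MM17), and it was 0.41 with TMM scaling and 0.16 with upper-quartile scaling.

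The direction split and the number of calls rested on choices of the fit. Higher genes made up 60.8% of the calls, 70.5% with TMM scaling and 48.2% with upper-quartile scaling. The spread was estimated over those of the 13 groups of the series that held replicate libraries. A fit of the 5 compared libraries alone left 69 genes higher and 63 lower, and 56 of 74 followed genes lost their call. Leaving out NE MM04 gave 1087 higher and 768 lower genes, and leaving out EN MM17 gave 900 higher and 895 lower genes, so that the number of higher genes moved by more than 1.5 times with either library.

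**Figure D2:**
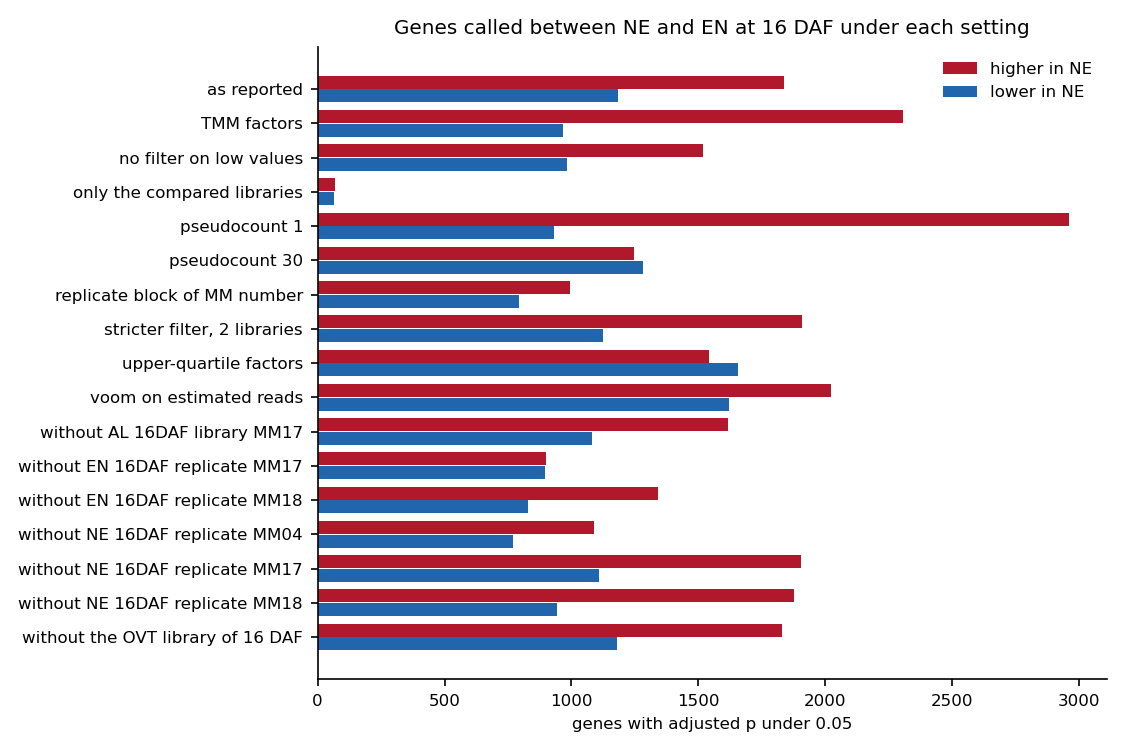
Number of genes called higher and lower in NE than in EN at 16 DAF (adjusted p under 0.05) under each setting of the fit. Bars show 1838 higher and 1185 lower genes in the fit as reported, 1902 and 1109 without NE MM17, and 69 and 63 when only the 5 compared libraries were fitted.

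The starch genes that passed the test were lower in NE. Of 24 starch genes, 12 were lower in NE and 0 higher (2 higher and 16 lower at an unadjusted p under 0.05), with a median of -3.54, against 4.30% lower and a median of 0.28 over all genes. Without NE MM17, 15 were lower and the median was -4.26. The number lower was 8 without NE MM04, 8 without NE MM18, 5 without EN MM17 and 5 without EN MM18. Os04g0624600, a starch synthase, was called higher with TMM scaling and without EN MM18, and its values were 404, 169 and 78.9 in NE libraries MM04, MM17 and MM18, against 0 and 76.7 in EN libraries MM17 and MM18. The same order of libraries, NE MM04, MM17, MM18 and then EN MM17, MM18, is kept for all values below, which are in units of the scaled signal of the file.

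ADP-glucose is the sugar donor of starch, and glucose-1-phosphate adenylyltransferase makes it. Among its genes, Os08g0345800 had 1541, 18430 and 242 units in NE, against 648300 and 217300 in EN. Every NE library lay below both EN libraries, NE MM17 nearest to them, and the difference was -7.60 ± 1.92 (log2, SE; adjusted p = 0.0176) and -9.23 without NE MM17 (adjusted p = 0.00305). The call was lost without EN MM17 (adjusted p = 0.129) and without EN MM18 (adjusted p = 0.0519). Os01g0633100, annotated with glycogen biosynthesis and placed here in the same group, had 2548, 21030 and 409 units in NE, against 516400 and 181700 in EN (-6.76 ± 1.84, adjusted p = 0.0263; 0.00687 without NE MM17). Its call was lost without NE MM04 (adjusted p = 0.0630), NE MM18 (0.0714), EN MM17 (0.169) or EN MM18 (0.0710). Os09g0298200, also annotated as this enzyme, showed no such gap, with 1762, 1019 and 500.4 units in NE, against 606 and 491 in EN (0.81 ± 0.69, adjusted p = 0.560). In the ADP-glucose group as a whole 4 of 7 genes were lower and 0 were higher (5 lower and 0 higher at an unadjusted p under 0.05), with 4.30% lower over all genes, and 5 were lower without NE MM17. The number lower was 2 without NE MM04, 2 without NE MM18, 1 without EN MM17 and 0 without EN MM18.

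Starch synthases extend the glucan chains. Os08g0191433, listed here among them although the file annotates it only with biosynthesis, had 80.7, 1106 and 214 units in NE, against 85780 and 50230 in EN. All NE libraries were far below both EN libraries, by -7.86 ± 1.34 (adjusted p = 0.000543), and the call held when any 1 of the 5 libraries was left out. Os06g0133000 had 593, 2213 and 122 units in NE, against 16760 and 47350 in EN, and missed the threshold (-5.65 ± 1.88, adjusted p = 0.0621) unless NE MM17 was left out (-6.64, adjusted p = 0.0352). In the group of synthases 3 of 10 were lower (5 without NE MM17, 2 without NE MM04, 2 without NE MM18, 1 without EN MM17 and 2 without EN MM18). Among the enzymes that branch, trim and phosphorolyse glucan, 5 of 7 were lower with and without NE MM17, and 3 without EN MM17 or without EN MM18. Os02g0528200 had 602, 2489 and 556 units in NE, against 41910 and 50300 in EN (-5.59 ± 0.90, adjusted p = 0.000338). Os04g0164900 had 1639, 3908 and 183 units in NE, against 47940 and 43260 in EN (-5.40 ± 1.22, adjusted p = 0.00557). Os03g0758100, annotated as a phosphorylase, had 126, 1908 and 227 units in NE, against 23030 and 11810 in EN (-5.38 ± 1.13, adjusted p = 0.00322). None of these 3 sets of values overlapped between the tissues, a state that 9.86% of all tested genes (NE below) shared. None of the 3 calls was lost when 1 library was left out.

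Sucrose synthase cleaves the sucrose that arrives, and 2 of its 4 genes were lower in NE, with and without NE MM17 (4.30% over all genes). Os06g0194900 had 2.00, 1187 and 169 units in NE, against 65630 and 23030 in EN. The NE libraries differed among themselves by far more than the EN libraries, yet all lay below both, by -8.15 ± 1.17 (adjusted p = 0.000102) and by -9.71 without NE MM17 (adjusted p = 5.92e-06). The neighbouring locus Os06g0195025 had nearly the same values (2.00, 1098 and 90.3 in NE, against 61280 and 19230 in EN), and the 2 cannot be told apart where reads were assigned without strand, which the sources used here do not state. Os03g0340500 had 1690, 4222 and 479 units in NE, against 48950 and 57200 in EN (-5.12 ± 0.79, adjusted p = 0.000214). Both calls held without any 1 library.

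Storage protein genes had the highest mean values in both tissues, in NE by way of NE MM17. Every NE library lay below both EN libraries for 17 of 18 genes (9.86% over all genes), and NE MM04 and NE MM18 lay below for all 18 (11.4% over all genes). Their median difference was -5.75 (-7.29 without NE MM17), yet only 2 of 18 were called lower and 0 higher (14 lower and 0 higher at an unadjusted p under 0.05), and 4 were called lower without NE MM17. The count was 1 without NE MM18 and 0 without EN MM17 or without EN MM18, and it was 6 with a pseudocount of 30 and 15 with voom on the estimated reads. Glutelin Os02g0249000 had 2213, 33200 and 320.2 units in NE, against 467800 and 277000 in EN (-6.96 ± 1.73, adjusted p = 0.0139; 0.103 without EN MM17 and 0.0604 without EN MM18). The second gene called, Os05g0328333 of the prolamin list, had 509.6, 846 and 4.17 units in NE, against 3188 and 5271 in EN (-4.48 ± 1.41, adjusted p = 0.0414). It lost the call without NE MM18 (adjusted p = 0.218), without EN MM17 (0.123) and without EN MM18 (0.188).

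The most abundant genes missed the threshold. Os07g0206500, a nutrient reservoir gene of the prolamin list, had 8933, 331700 and 5804 units in NE, against 3160000 and 2671000 in EN (-6.81 ± 2.77, adjusted p = 0.138). Glutelin Os01g0762500 had 55060, 237200 and 4572 units in NE, against 3205000 and 2734000 in EN (-6.24 ± 2.37, adjusted p = 0.110). In each case NE MM17 was the highest NE library and NE MM18 the lowest. Glutelin Os02g0268100 had 46870, 318700 and 5455 units in NE, against 3643000 and 1354000 in EN (-5.68 ± 2.66, adjusted p = 0.207). Of the 5 genes with the highest mean in each tissue, all storage protein genes, 3 were shared: Os02g0268100, Os07g0206500 and Os02g0268300, with Os07g0206400 and Os02g0249600 beside them in NE and Os01g0762500 and Os02g0453600 in EN. The NE order rested on NE MM17: Os02g0249600 had 62900, 231800 and 2952 units in NE, while peroxiredoxin Os07g0638300 had 105600, 112400 and 32290, so that it stood above this glutelin in NE MM04 and NE MM18. Copies within the glutelin and prolamin families share sequence, and Os02g0249800 and Os02g0249900 had nearly the same values in each library (10230 and 10180 in NE MM04), so single members are uncertain.

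Among 8 genes listed as endosperm regulators, 2 were lower and 1 was higher in NE (3 lower and 1 higher without NE MM17, and 0 higher without EN MM17). Over all genes 4.30% were lower and 6.68% higher. Os02g0252400, a DNA-binding gene, had 0, 188 and 0.353 units in NE, against 898 and 2542 in EN (-5.80 ± 1.20, adjusted p = 0.00289). NE MM17 was far above the other NE libraries, and the difference without it was -7.23 (adjusted p = 0.000282). Os04g0645100 had 434, 659 and 46.0 units in NE, against 23140 and 35950 in EN (-6.82 ± 1.03, adjusted p = 0.000168). The gene that went the other way was Os02g0725900, also DNA-binding, with 2992, 13030 and 12840 units in NE, against 37.5 and 1411 in EN (4.94 ± 1.16, adjusted p = 0.00760). It was at 43320, 13840 and 9727 units in AL, and its call was lost without EN MM17 (adjusted p = 0.284).

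Among genes of sugar supply, those of the SWEET list that passed the test were higher. SWEET proteins let sugars pass out of cells along their gradient, and 3 of 4 listed genes were higher in NE and 0 lower (3 and 0 at an unadjusted p under 0.05), with a median of 4.98 (6.68% higher and 0.28 over all genes). Without NE MM17 the same number was higher, with a median of 5.59, and 2 were higher without NE MM04 or without EN MM17 and 1 with voom. Membership was assigned by identifier, since the file gives these genes no annotation. Os08g0535200 had 21750, 3607 and 35110 units in NE, against 52.1 and 184 in EN. All NE libraries were above both EN libraries, NE MM17 the nearest, by 6.997 ± 1.21 (adjusted p = 0.000642) and by 7.98 without NE MM17 (adjusted p = 0.000337). Os02g0513100 had 1340, 59.4 and 2208 units in NE, against 0 and 3.83 in EN (5.65 ± 1.14, adjusted p = 0.00228). The calls of both genes held without any 1 library. Os02g0301100 had 8011, 3220 and 340.4 units in NE, against 22.8 and 329.8 in EN (4.30 ± 1.06, adjusted p = 0.0105). Its lowest NE library lay close to the higher EN library, and the call was lost without EN MM17 (adjusted p = 0.247) and without NE MM04 (0.0693).

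In AL the SWEET-listed genes spread widely. Os08g0535200 had 22730, 3931 and 398 units in AL libraries MM04, MM17 and MM18, and Os02g0513100 had 89.9, 53.5 and 1.52. The other carriers and enzymes of sugar supply gave no call: 0 of 4 tested genes of the SUT list of sucrose importers (0 at an unadjusted p under 0.05) and 0 of 2 tested cell wall invertases (0 at an unadjusted p under 0.05). OsGIF1, the cell wall invertase tied to grain filling, was at 0, 0.503 and 16.1 units in NE, against 0 and 0 in EN. A value of 0 allows up to 4.89 and 11.5 units in the EN libraries, so a difference was not detectable at this depth for that gene. Of 24 genes that the study listed as sugar transporters from these libraries, 4 were higher and 2 lower (6.68 and 4.30% over all genes), and OsTMT2 (Os02g0229400) was among the higher, with 442, 256 and 129 units in NE, against 0 and 23.0 in EN (3.82 ± 0.88, adjusted p = 0.00626; 0.103 without EN MM17). The counts were 4 and 2 without NE MM17 also, 1 and 0 without EN MM17, and 2 and 2 without NE MM04, without NE MM18 or without EN MM18.

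**Figure D3:**
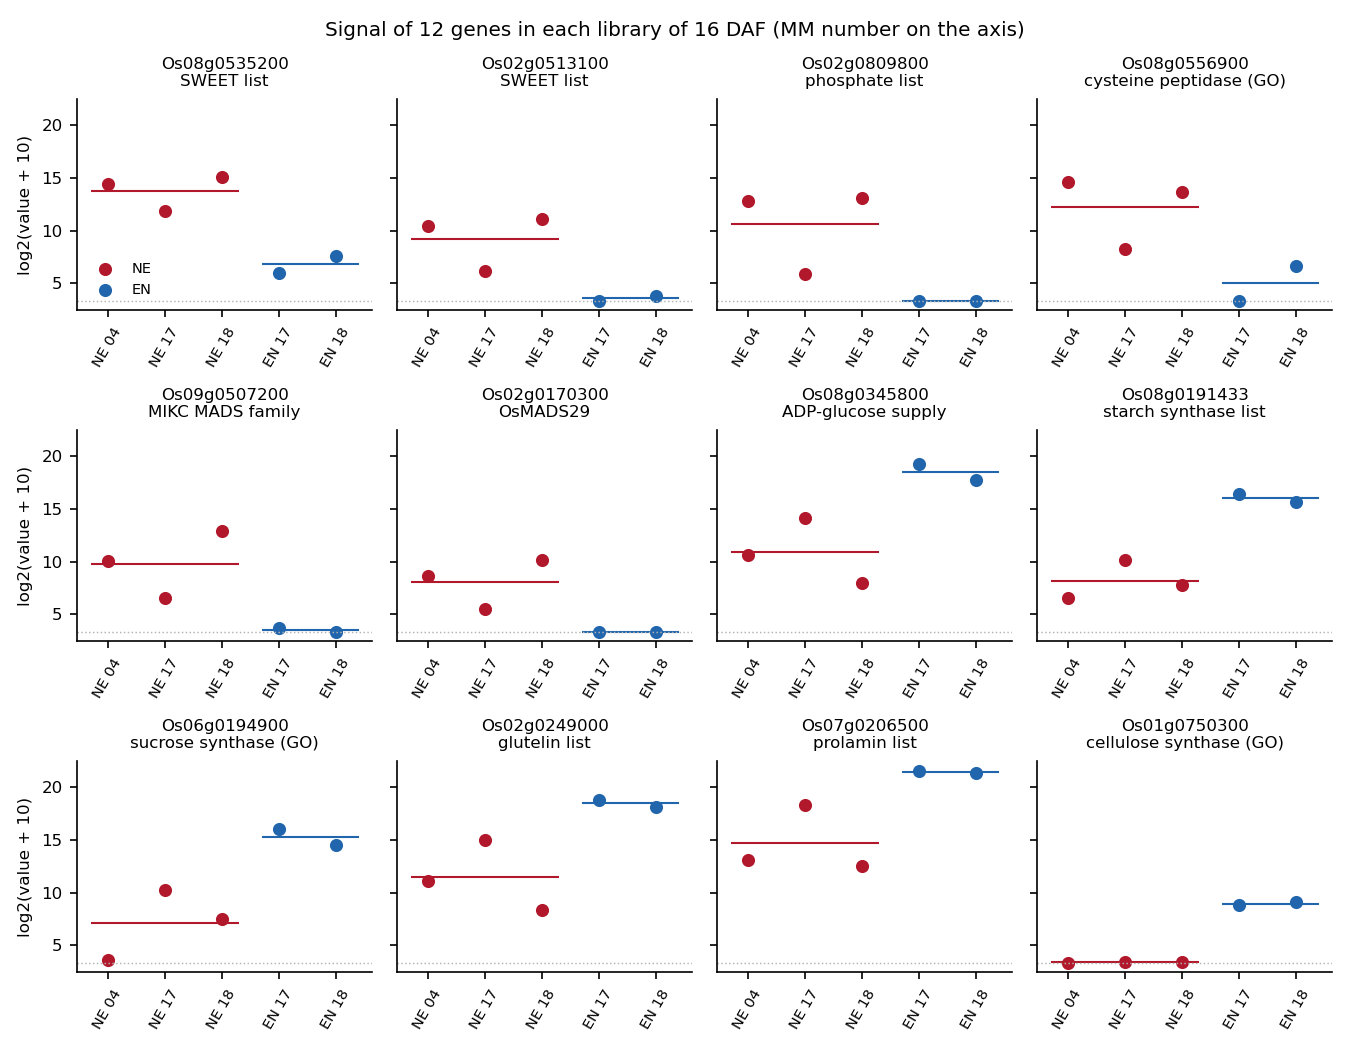
Signal of 12 genes as log2(value + 10) in each NE library (left) and each EN library (right) of 16 DAF, 1 point per library, with a line at the mean of each tissue and a dotted line at a value of 0. Os08g0535200 of the SWEET list and Os02g0809800 lie higher in all NE libraries, and Os08g0345800, Os08g0191433 and Os02g0249000 lie higher in both EN libraries, with NE MM17 the NE point nearest to EN in each.

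Phosphate and metal carriers held single strong differences. Os02g0809800, which the study placed among its carriers of nitrogen, sulfur and phosphorus, had 7145, 49.3 and 8493 units in NE, against 0 and 0 in EN. The NE mean was at least 638-fold higher than the limit of 3 reads in EN, and the call (adjusted p = 0.00454, and 7.68e-05 without NE MM17) held without any 1 library. NE MM17 was far below the other NE libraries here and close to AL MM17 (77.8 units). Os01g0719300, a sulfate transporter, had 1510, 297 and 2548 units in NE, against 0 and 11.5 in EN (6.18 ± 1.16, adjusted p = 0.00128). Another sulfate transporter, Os01g0593700, was the reverse, at 0 in every NE library, against 132 and 943 in EN, and the EN mean was at least 513-fold higher than the limit of 3 reads in NE (adjusted p = 1.47e-06). Of 15 genes of that list, 3 were higher and 1 lower, with and without NE MM17, against 6.68 and 4.30% over all genes.

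Of 16 tested genes of metal and phosphate handling, 2 were higher and 0 lower (5 higher and 0 lower at an unadjusted p under 0.05). Without NE MM17 1 was higher, and over all genes 6.68% were higher (6.91% without NE MM17). Beside Os02g0809800, ABC transporter Os03g0142800, had 8134, 5377 and 8558 units in NE, against 460 and 1365 in EN (3.17 ± 1.03, adjusted p = 0.0479). It lost its call without any 1 of the 5 libraries (adjusted p = 0.0620 without NE MM17, 0.113 without NE MM04, 0.102 without NE MM18, 0.334 without EN MM17 and 0.0652 without EN MM18). OsYSL2, a carrier of metal chelates, was called lower only without EN MM17, and had 0, 31.2 and 35.0 units in NE, against 1.63 and 652 in EN. The inositol-3-phosphate synthase gene Os03g0192700, whose enzyme opens the path to phytate, had 12010, 11270 and 2116 units in NE, against 1620 and 1369 in EN, a gap that missed the threshold (2.14 ± 0.74, adjusted p = 0.0631). OsHMA1, a metal-pumping ATPase, was lower, with 228, 73.0 and 61.4 units in NE, against 1045 and 1622 in EN (-3.55 ± 0.89, adjusted p = 0.0116; 0.0313 without NE MM17), and its call was lost without EN MM18 (adjusted p = 0.0834). OsHMA2, a zinc pump of the same family, had 3.01, 218 and 63.2 units in NE, against 0 and 0 in EN (adjusted p = 0.0862).

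Proton pumps energise uptake across membranes. OsAHA1 (Os03g0689300) had 4587, 4776 and 10650 units in NE, against 0 and 1051 in EN (5.90 ± 1.42, adjusted p = 0.00892), and OsAHA2 (Os07g0191200) had 359.8, 1214 and 4539 units in NE, against 0 and 184 in EN (4.85 ± 1.29, adjusted p = 0.0170). Both calls were lost without EN MM17 (adjusted p = 0.342 and 0.345), the library at 0 for both genes, and that of OsAHA2 also without NE MM18 (0.0735). Other proton pumps are driven by pyrophosphate. Os06g0644200 had 334, 396 and 3857 units in NE, against 0 and 0 in EN, at least 187-fold higher than the limit in EN (adjusted p = 0.000302). Os02g0802500 had 2538, 2029 and 455 units in NE, against 0 and 23.0 in EN (6.21 ± 1.09, adjusted p = 0.000708), and its overlapping neighbour Os02g0802575 had like values (2203, 1871 and 373 in NE, against 0 and 0 in EN), so the 2 are not separate results. Both pump genes kept their calls without any 1 library. The study listed them with amino acid carriers, where 8 of 37 were higher and 3 lower (11 and 3 without NE MM17), against 6.68 and 4.30% over all genes. The median of that list was 0.74, and 0.36 without EN MM17, against 0.28 and 0.31 over all genes.

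The study also listed wider carrier families, chosen on these libraries, and their counts stand against 6.68% higher and 4.30% lower over all genes. Of 32 genes that the study listed under HMA (heavy metal ATPase), 6 were higher and 3 lower (5 and 3 without NE MM17, 0 and 1 without EN MM17, 2 and 3 without NE MM04). Whether each of them is such a pump was not checked. Of 49 ABC transporter genes, 6 were higher and 1 lower (5 and 1 without NE MM17, 0 and 2 without EN MM17, 2 and 1 without NE MM04). Of 32 metal carrier genes, 4 were higher and 1 lower, with and without NE MM17, and 1 and 1 without EN MM17. The medians of these lists were 0.96, 1.06 and 1.08, against 0.28 over all genes.

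MADS-box genes of the MIKC type include OsMADS29. Of 21 listed by the study, 3 were higher and 1 lower (6.68 and 4.30% over all genes). The numbers were 6 and 1 without NE MM17, 1 and 1 without NE MM04, without NE MM18 or without EN MM17, and 2 and 0 without EN MM18. Os09g0507200 had 1020, 83.6 and 7399 units in NE, against 3.26 and 0 in EN (6.28 ± 1.26, adjusted p = 0.00220), and it held without any 1 library. OsMADS29 had 378, 35.8 and 1115 units in NE, against 0 and 0 in EN, at least 62.2-fold higher than the limit in EN (adjusted p = 0.0168, and 0.00331 without NE MM17). NE MM17 was again the lowest NE library, near AL MM17 (20.9 units), while AL MM04 had 233 units. The OsMADS29 call was lost without NE MM04 (adjusted p = 0.0577), NE MM18 (0.0754), EN MM17 (0.0843) or EN MM18 (0.0755). Os08g0531700 had 586, 24.2 and 3288 units in NE, against 0 and 15.3 in EN (4.67 ± 1.27, adjusted p = 0.0192), and its call was lost without NE MM04 (0.0678), NE MM18 (0.102) or EN MM17 (0.160). The member that was lower, Os02g0579600, had 386, 93.7 and 0.176 units in NE, against 1589 and 3635 in EN (-5.01 ± 1.11, adjusted p = 0.00492), and its call was lost without EN MM18 (0.0553).

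Over all 349 genes annotated with transcription factor activity, 22 were higher and 11 lower (26 and 9 without NE MM17, 5 and 6 without NE MM04, 25 and 6 without NE MM18, 7 and 10 without EN MM17, 15 and 5 without EN MM18), against 6.68 and 4.30% over all genes. Among the higher, Os12g0636200 had 602, 175 and 721 units in NE, against 0 and 0 in EN, at least 60.9-fold higher than the limit in EN (adjusted p = 1.89e-05). Among the lower, Os03g0271100, whose product is also annotated as a sigma factor, had 0, 14.1 and 0 units in NE, against 388 and 226 in EN (-4.52 ± 0.59, adjusted p = 3.45e-05). Both held without any 1 library. Os01g0859300 had 8716, 3459 and 1403 units in NE, against 0 and 809 in EN (5.27 ± 1.30, adjusted p = 0.0103; 0.0545 without NE MM04 and 0.404 without EN MM17). Os04g0550200 had 0, 3.52 and 6.62 units in NE, against 81.5 and 299 in EN (-3.68 ± 0.87, adjusted p = 0.00764; 0.115 without EN MM18). That the NE and EN values of these genes did not overlap was part of their choice. Os10g0397900 and Os08g0508700 were also lower, with adjusted p of 0.0445 and 0.0250, and lost their calls without EN MM17 (0.235 and 0.153), EN MM18 (0.106 and 0.0735) or NE MM18 (0.151 and 0.108), and Os10g0397900 also without NE MM04 (0.165).

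Proteases were among the genes called. Of 37 cysteine peptidase genes tested, 4 were higher and 0 lower (7 and 1 at an unadjusted p under 0.05, and 6.68% higher and 4.30% lower over all genes), and 6 were higher without NE MM17 (2 without EN MM17). Os08g0556900 had 25680, 303 and 12610 units in NE, against 0 and 92.0 in EN (7.19 ± 1.54, adjusted p = 0.00375; 0.0881 without EN MM17). Os04g0670200 had 2427, 130.4 and 2538 units in NE, against 0 and 0 in EN, at least 207-fold higher than the limit in EN (adjusted p = 0.000642). Os04g0650000 had 1407, 28.7 and 1962 units in NE, against 0 and 0 in EN, at least 138-fold higher (adjusted p = 0.00605). NE MM17 was the lowest NE library for all 3 genes and lay near AL MM17 (356, 129 and 37.3 units). Serine carboxypeptidases, which trim proteins from their carboxyl end, had 5 higher and 1 lower of 35, with and without NE MM17 (2 and 0 without EN MM17, 3 and 0 without NE MM04). Os02g0114200 of these had 2468, 123 and 1340 units in NE, against 0 and 0 in EN, at least 160-fold higher (adjusted p = 0.00527).

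Of the 12 genes with the widest higher difference, Os06g0553200 led, with 3040, 2743 and 7269 units in NE, against 0 and 3.83 in EN (8.39 ± 1.26, adjusted p = 0.000157). In AL libraries MM04, MM17 and MM18 it had 12580, 2932 and 483.5 units. It has no annotation in the file, its NE libraries lay close together, and it held without any 1 library. Os05g0366900, also without annotation, had 2725, 106 and 5238 units in NE, against 0 and 7.67 in EN (6.48 ± 1.22, adjusted p = 0.00135). Os08g0189100, annotated with manganese binding and nutrient reservoir activity, had 22290, 1324 and 83280 units in NE, against 13.04 and 564 in EN (6.88 ± 1.98, adjusted p = 0.0353), and lost its call without NE MM04 (0.0881), NE MM18 (0.102) or EN MM17 (0.330). The other entries were 2 pairs of neighbouring loci with like values, Os02g0752200 with Os02g0752250 and Os03g0345300 with Os03g0345500. Os02g0752200 had 4219, 292.5 and 11550 units in NE, against 0 and 30.7 in EN, and Os02g0752250 had 3019, 236 and 9068, against 0 and 0. The calls of all these loci were lost without any 1 library but NE MM17 (adjusted p = 0.0540 to 0.0751 without NE MM04 or NE MM18 for Os03g0345300 and Os02g0752250). The remaining 5 of the 12 are described above.

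Of the 12 genes with the widest lower difference, Os06g0160200, annotated as a hydrolase of ester bonds in lipid metabolism, had 0.501, 3316 and 0.574 units in NE, against 54570 and 47880 in EN (-9.48 ± 1.71, adjusted p = 0.000900). Its values were far lower in NE MM04 and NE MM18 than in NE MM17, which was near AL MM17 (3184 units), and without NE MM17 the difference was -12.24 (adjusted p = 5.34e-06). Os06g0160100, a nucleosome gene near it, had 1.13, 759 and 0.341 units in NE, against 15280 and 10580 in EN (-8.16 ± 1.51, adjusted p = 0.00109). The unannotated Os06g0527800 had 1.75, 499.7 and 19.97 units in NE, against 28920 and 30900 in EN (-9.05 ± 1.55, adjusted p = 0.000555). Os01g0498802, also unannotated, had 0, 23.7 and 0 units in NE, against 13530 and 3267 in EN (-8.80 ± 0.83, adjusted p = 5.64e-07). All 12 lower genes kept their calls without any 1 library, and NE MM17 was the highest NE library in each. The others were the pair of neighbours Os07g0604300 and Os07g0604350, Os02g0616600, Os02g0528500, Os03g0601500, and the sucrose synthase, its neighbour and the starch synthase given above, with differences of -8.48 to -7.79.

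The brassinosteroid genes that passed the test were higher. These steroid hormones are made by a chain of oxidoreductases and read by receptor kinases at the cell surface. Of 29 genes in the study's list, which the study chose on these libraries, 11 were higher in NE and 0 lower (15 and 0 at an unadjusted p under 0.05, and 6.68 and 4.30% called over all genes), with a median of 1.97 (3.18 with genes at 0 in EN or NE taken at their bound, against 0.55 over all genes). Without NE MM17 the count was again 11 and 0, with a median of 1.93. It was 6 without NE MM04 and 7 without EN MM17. Os07g0206700, a methyltransferase, had 1599, 599.7 and 503 units in NE, against 0 and 53.7 in EN (4.98 ± 0.66, adjusted p = 4.10e-05). Os02g0465400, an oxidoreductase, had 544, 364 and 478 units in NE, against 0 and 11.5 in EN (4.99 ± 0.82, adjusted p = 0.000399). Os06g0547900, a protein kinase, had 78.7, 199 and 431 units in NE, against 0 and 0 in EN, at least 28.9-fold higher (adjusted p = 0.000268). None of these genes overlapped between tissues, a state that 19.8% of all tested genes (NE above) shared. None lost its call without 1 library.

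Auxin genes moved in both directions. Of 50 listed by the study, 10 were higher and 4 lower, against 6.68 and 4.30% over all genes (8 and 3 without NE MM17, 6 and 2 without NE MM04, 4 and 1 without EN MM18, 5 and 4 without EN MM17). Auxin response factors bind auxin-responsive promoters, and OsARF24 had 1833, 1138 and 576 units in NE, against 197 and 19.2 in EN (3.79 ± 0.67, adjusted p = 0.000766). OsARF4 was lower, with 329, 422 and 742 units in NE, against 3018 and 4107 in EN (-2.88 ± 0.63, adjusted p = 0.00449). Both held without any 1 library. Anthranilate synthase starts the tryptophan path from which auxin is made, and its genes parted: OsASA2 had 277, 73.5 and 57.2 units in NE, against 0 and 0 in EN (at least 16.6-fold higher, adjusted p = 0.00500). OsASA1 had 6.51, 257 and 37.4 units in NE, against 1390 and 2013 in EN (-4.83 ± 1.29, adjusted p = 0.0170), and lost its call without NE MM04 (0.0861), EN MM17 (0.0694) or EN MM18 (0.0970).

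The other hormone lists stand against the same 6.68% higher and 4.30% lower over all genes. For cytokinin, 4 of 21 genes were higher and 1 lower (3 and 1 without NE MM17, 8 and 1 without NE MM18, 2 and 1 without EN MM17, 2 and 0 without EN MM18). Os01g0923700, annotated as a sensor histidine kinase and response regulator, had 646, 73.5 and 114 units in NE, against 0 and 0 in EN (at least 33.9-fold higher, adjusted p = 0.00222). For abscisic acid, 11 of 61 were higher and 8 lower (11 and 7 without NE MM17, 1 and 4 without EN MM17, 6 and 4 without NE MM04, 9 and 2 without EN MM18). Protein kinase Os04g0432000 had 647, 299 and 816 units in NE, against 35.9 and 15.3 in EN (4.02 ± 0.67, adjusted p = 0.000471), and Os09g0321900, annotated as an acid-amino acid ligase, had 357, 348 and 282 units in NE, against 5282 and 6335 in EN (-4.10 ± 0.90, adjusted p = 0.00457). For gibberellin, 4 of 33 were higher and 4 lower (5 and 3 without NE MM17, 1 and 3 without EN MM17), with dioxygenase Os10g0522900 at 1014, 241 and 44.0 units in NE, against 0 and 0 in EN (at least 52.8-fold higher, adjusted p = 0.00354). For ethylene, 2 of 34 were higher and 4 lower (3 and 4 without NE MM17, 0 and 2 without EN MM17, 4 and 1 without EN MM18), and sensor histidine kinase Os03g0701700 had 399, 775 and 525 units in NE, against 6504 and 8398 in EN (-3.73 ± 0.70, adjusted p = 0.00118).

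Glycolysis split by gene copy. Of 51 glycolysis genes tested, 11 were higher and 4 lower in NE (9 and 4 without NE MM17, 6 and 4 without NE MM04), against 6.68 and 4.30% over all genes, and copies annotated with the same step lay on opposite sides. Phosphofructokinase-type gene Os06g0326400 had 194, 698 and 203 units in NE, against 26210 and 25310 in EN (-6.36 ± 1.03, adjusted p = 0.000344), while Os05g0524400 of the same annotated activity had 783, 588 and 176 units in NE, against 0 and 46.0 in EN (4.23 ± 0.91, adjusted p = 0.00376). Aldolase Os01g0905800 had 5932, 8637 and 5445 units in NE, against 49890 and 53330 in EN (-2.98 ± 0.42, adjusted p = 7.17e-05), while aldolase Os01g0118000 had 833, 325 and 445 units in NE, against 0 and 34.5 in EN (4.58 ± 0.74, adjusted p = 0.000363). Pyruvate kinase Os12g0145700 had 1734, 908 and 436 units in NE, against 19160 and 12730 in EN (-4.13 ± 0.90, adjusted p = 0.00458), while pyruvate kinase Os10g0571200 had 353, 475 and 324 units in NE, against 17.9 and 0 in EN (4.54 ± 0.90, adjusted p = 0.00207). The values of these 6 genes did not overlap between the tissues, as in 19.8% (NE above) and 9.86% (NE below) of all tested genes. Apart from Os05g0524400, lost without EN MM17 (adjusted p = 0.0982), each call held without any 1 library.

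The wall and cytoskeleton genes that passed the test were lower, against 4.30% lower over all genes. Of 10 cell wall synthesis genes, 2 were lower and 0 higher (5 and 0 at an unadjusted p under 0.05), in every fit that left out 1 library but that without NE MM18, which gave 3. Cellulose synthase Os01g0750300 had 0, 0.503 and 0.397 units in NE, against 449.8 and 525 in EN (-5.59 ± 0.98, adjusted p = 0.000708). Os08g0160500 of the same activity had 0, 9.57 and 12.1 units in NE, against 244 and 759 in EN (-4.76 ± 0.91, adjusted p = 0.00143). The 3 NE libraries, NE MM17 included, were alike for Os01g0750300, in contrast to most lower genes above. Of 57 genes of movement along microtubules, 0 were higher and 9 lower (7 and 13 at an unadjusted p under 0.05). Without NE MM17 2 were higher and 8 lower, and 6 were lower without NE MM04. The median without EN MM17 was 0.24, against 0.31 over all genes. Motor gene Os01g0625200 had 0, 35.2 and 178 units in NE, against 2516 and 6799 in EN (-6.56 ± 1.08, adjusted p = 0.000413). Motor gene Os10g0512800 had 24.1, 406 and 112 units in NE, against 2559 and 1833 in EN (-4.18 ± 0.93, adjusted p = 0.00492).

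Late seed genes had a positive median difference, which lay close to that of all genes without EN MM17, and few passed the test. Of the 12 aleurone and late seed markers 2 were higher and 0 lower (6 higher and 0 lower at an unadjusted p under 0.05, and 6.68% higher over all genes), with a median of 2.77 and of 2.02 without NE MM17. The count without NE MM17 was 2 also. Every NE library lay above both EN libraries for 2 of the 12, against 19.8% over all genes. Without EN MM17 the median was 0.46, against 0.31 over all genes. The EN libraries differed widely here, and 0 were higher without EN MM17, 6 without EN MM18, 5 without NE MM18 and 1 without NE MM04. Peroxiredoxin Os07g0638300 had 105600, 112400 and 32290 units in NE, against 108 and 7500 in EN (6.27 ± 1.14, adjusted p = 0.000963; 0.0663 without EN MM17). In AL it had 64730, 123300 and 72080 units. Os05g0542500 of the same list had 18240, 14710 and 1614 units in NE, against 48.9 and 1998 in EN (4.46 ± 1.11, adjusted p = 0.0111), and lost its call without NE MM04 (0.0608) and without EN MM17 (0.391). Os03g0699000, annotated to lipid storage bodies, had 5632, 8731 and 1033 units in NE, against 9.78 and 3865 in EN, and missed the threshold (3.75 ± 1.55, adjusted p = 0.132). OsWRKY71, a repressor known from aleurone cells, had 29.6, 41.3 and 0 units in NE, against 0 and 7.67 in EN (adjusted p = 0.265).

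**Figure D4:**
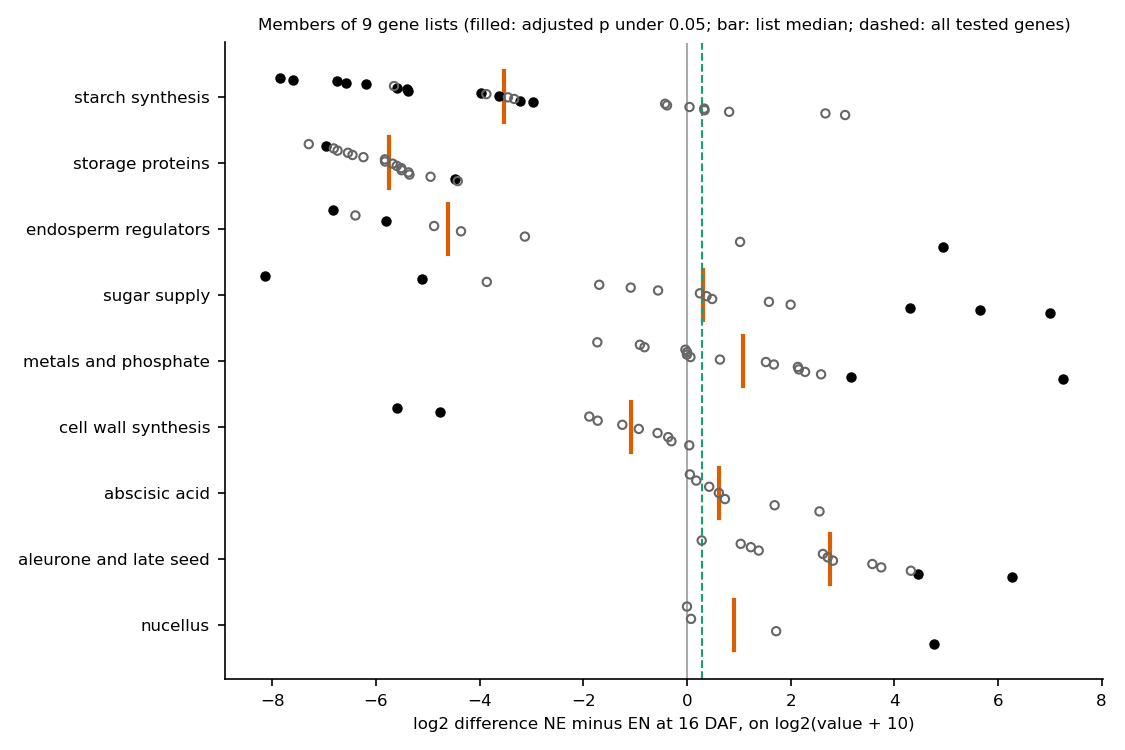
Difference between NE and EN at 16 DAF (log2, NE minus EN) for each tested gene of 9 gene lists, 1 dot per gene (filled where the adjusted p is under 0.05), with the median of each list and a dashed line at the median of all genes (0.28). The starch and storage protein lists lie below the line (medians of -3.54 and -5.75) and the aleurone and late seed list above it (2.77).

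The same tissues were compared at 8 DAF, with 3 NE libraries (MM20, MM21 and MM22) and 2 EN libraries (MM20 and MM22) that share no library with those of 16 DAF. At 8 DAF 587 genes were higher and 511 lower in NE (3.99% of all genes, 2.13% higher and 1.86% lower). Of the genes called at 16 DAF, 259 of 1838 higher and 270 of 1185 lower were called in the same direction at 8 DAF, and 0 were called in opposite directions. Of the genes above, the SWEET-listed Os08g0535200 differed by 5.82 at 8 DAF, OsMADS29 by 6.64, and Os06g0160200 by -9.55. Others among the widest higher genes were not called at 8 DAF: Os02g0752250 differed by -0.69, Os02g0752200 by 0.32 and Os02g0809800 by 4.25. Starch genes gave 3 lower and 0 higher of 24 at 8 DAF, with a median of -2.37, and storage protein genes 2 lower of 18, with a median of -6.01.

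A test of the difference itself, 16 DAF less 8 DAF, gave 36 genes with a more positive and 39 with a more negative tissue difference at 16 DAF (0.272% of all genes, with 0.131 and 0.142% in each direction). Without NE MM17 the numbers were 35 and 34 (0.251%, with 0.127 and 0.124% in each direction), and 21 and 27 genes passed in both fits. Leaving out EN MM17 of 16 DAF gave 197 and 259, and a limma fit of the compared libraries alone gave 0 and 0 (1637 and 744 at an unadjusted p under 0.05). Os03g0248600, an enolase of glycolysis, had 1661, 880.1 and 1521 units in NE, against 0.815 and 15.3 in EN at 16 DAF, and 1026, 1110 and 1693 units in NE, against 315 and 310.3 in EN at 8 DAF. Its tissue difference was larger at 16 DAF by 4.35 ± 0.90 (adjusted p = 0.0308), with lower EN values at 16 DAF. Os03g0329900, annotated with DNA binding, had 922, 195 and 496 units in NE, against 0 and 0 in EN at 16 DAF, and 322, 181 and 178 in NE, against 348 and 346 in EN at 8 DAF. The change was 6.17 ± 0.92 (adjusted p = 0.00202), and the EN libraries were again the lower ones at 16 DAF.

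In the other direction, Os03g0328100 had 0, 0 and 0.618 units in NE, against 135 and 265 in EN at 16 DAF, and 25.0, 67.6 and 73.7 in NE, against 13.9 and 7.22 in EN at 8 DAF (-5.88 ± 0.97, adjusted p = 0.00516). Os02g0617075, annotated with rRNA N-glycosylase activity, was at 0 in all NE libraries of 16 DAF, against 205 and 495 in EN, and at 8 DAF it had 1.30, 0 and 0 units in NE, against 0 and 0 in EN (-5.10 ± 0.48, adjusted p = 3.73e-06). Its signal was above 1.30 units only in the EN libraries of 16 DAF among the NE and EN libraries of both days. All AL libraries were at 0 also. Groups at 0 hold no spread, so the SE pooled over groups is not that of the EN libraries at 205 and 495 units. With the compared libraries alone its call was lost.

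**Figure D5:**
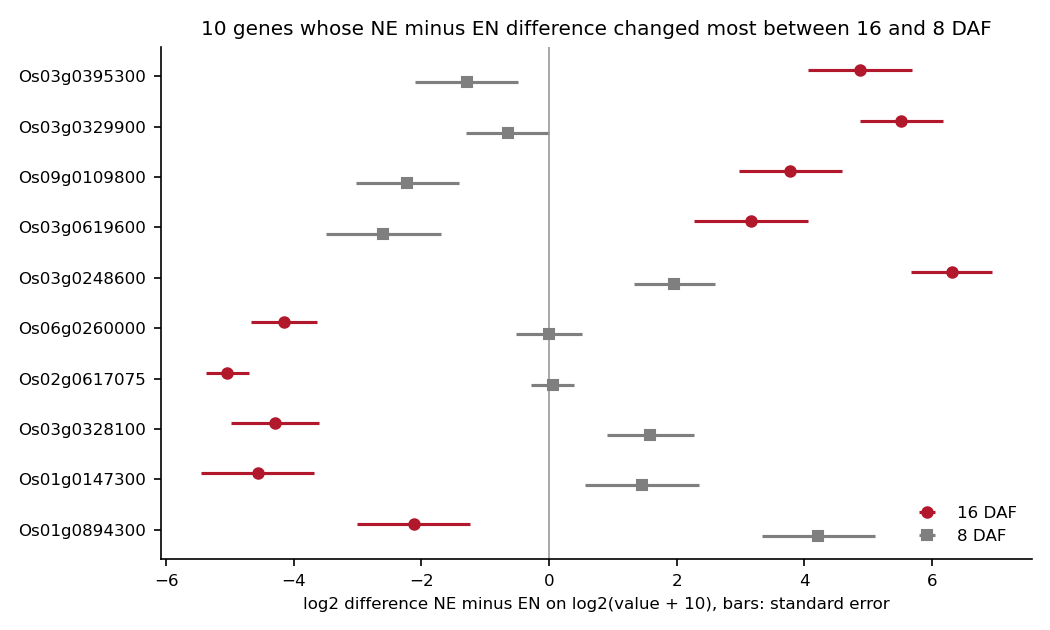
Difference between NE and EN (log2, NE minus EN) at 16 DAF and at 8 DAF for the 10 genes whose difference changed most between the days with and without NE MM17, 1 pair of points per gene with standard errors. Os03g0329900 lies at 5.52 at 16 DAF and -0.65 at 8 DAF, and Os02g0617075 at -5.04 and 0.06.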

How the data were processed

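Laser-captured tissue of rice grains was profiled by RNA-seq in 28 libraries of 13 groups. The signal values were deposited by the authors as 1 scaled number per gene and library. Per the submitters' processing notes the tools were STAR (genome IRGSP-1.0) and edgeR, with versions not given in the sources used here. Values were whole multiples of the value of 1 read for 85.5 to 95.7% of the values under 100 reads (within 0.03 of a read), and this value gave the estimated reads. The scaling of the authors had set all libraries to nearly 1 common log2 mean across those 3763 genes that no library had at 0. The fraction of G and C of each gene model, deposited by the authors, and the columns that mark genes as present were not used, and 1 column that matched no sample was left out.

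Of 45990 genes, 27529 were tested, each of which exceeded a value of 10, with no fewer than 10 estimated reads, in some library of the series. Differences (NE minus EN) are on the scale of log2(value + 10), which understates the change of low genes. Limma 3.58.1 in R 4.3.3 (statmod 1.5.0) fitted a mean for each group over all libraries, with a trended and robust prior, and gave 2-sided tests with Benjamini-Hochberg adjustment over all genes tested at 0.05. The estimate of the spread had 15 residual degrees of freedom. Where a gene was at 0 throughout a group, that group counted in them but added no spread. The SE of such a gene can come out too small. The fitting step was tested on simulated data. Summaries used Python 3.11.15, numpy 2.4.6 and pandas 2.3.3.

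Where all libraries of a tissue were at 0, the fold is a lower bound of the other tissue's mean over the value of 3 reads, averaged over libraries (8.20 units in EN and 1.05 in NE). Limits cover counting error only, and PCR copies are not independent molecules.

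The genes named without a list were the 12 with the widest difference in each direction among genes called with and without NE MM17 and not overlapping between tissues, the 5 with the highest mean in each tissue, 5 transcription factor genes in each direction by the same rule, and the 5 in each direction whose difference changed most between 8 and 16 DAF. Genes named within a list were picked after their values were seen. The members and lists were chosen with earlier results of these data known. List membership was assigned by gene identifier, from the study's own lists, or from the GO identifiers of the file, and roles come from those identifiers or from the study's gene symbols. Lists are described by counts and medians, without a test. Other scalings, filters, pseudocounts, fits and left-out libraries were tried as alternatives.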

Additional observations from a re-analysis of the deposited data

Results flagged for a closer look

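For 10 genes, 5 in each direction, the difference between NE and EN at 16 DAF departed from that at 8 DAF by a test of the difference itself (limma, adjusted p over all genes). The difference was more positive at 16 DAF by 6.17 for Os03g0395300 (adjusted p = 0.0154), by 6.17 for Os03g0329900 (0.00202), by 6.01 for the citrate transporter gene Os09g0109800 (0.0168), by 5.76 for the DNA-binding gene Os03g0619600 (0.0493) and by 4.35 for the enolase gene Os03g0248600 (0.0308). In Os09g0109800 the values were 92.2, 359 and 137 in NE, against 6.52 and 0 in EN at 16 DAF, and 167, 18.8 and 58.8 in NE, against 362 and 281 in EN at 8 DAF. In Os03g0395300 they were 369, 272 and 228 in NE, against 0 and 0 in EN at 16 DAF, and 83.7, 23.2 and 80.8 in NE, against 121 and 188 in EN at 8 DAF.

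The change was -6.34 for the ribokinase gene Os01g0894300 (adjusted p = 0.0248), -6.03 for the serine endopeptidase gene Os01g0147300 (0.0326), -5.88 for Os03g0328100 (0.00516), -5.10 for Os02g0617075 (3.73e-06) and -4.15 for Os06g0260000 (0.0101). Os01g0894300 had 64.1, 276 and 27.5 units in NE, against 259 and 594 in EN at 16 DAF, and 157, 386 and 242 in NE, against 8.69 and 0 in EN at 8 DAF, so that its NE and EN libraries of 16 DAF overlapped. All 10 genes passed also without NE MM17, which was part of their choice. With the compared libraries alone all 10 lost the call, with the MM number as a block 8 lost it and with voom 6. Leaving out a library of 8 DAF lost 7 (EN MM20), 6 (EN MM22 or NE MM21), 4 (NE MM22) or 2 (NE MM20), and leaving out another library of 16 DAF lost 4 (NE MM04), 3 (NE MM18 or EN MM18) or 1 (EN MM17).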

How the results depend on the processing

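None of the 74 genes followed changed direction under any alternative. Among genes with values above that were not called, OsYSL2 (-1.73) ranged from -4.64 to 1.19, OsWRKY71 (1.04) from -1.82 to 1.89 and Os03g0699000 (3.75) from -0.06 to 7.55 over the alternatives. The number of genes higher in NE was 2961 with a pseudocount of 1 and 69 when the 5 compared libraries were fitted alone, which also gave 63 lower genes. It ranged over 900 to 1902 when 1 NE or EN library of 8 or 16 DAF was left out. The number lower then ranged over 768 to 1136. Without the OVT library of 16 DAF the numbers were 1829 higher and 1180 lower. For the change between 8 and 16 DAF, the numbers more positive and more negative were 0 and 0 with the compared libraries alone (limma, with 1637 and 744 at an unadjusted p under 0.05), 119 and 23 with a pseudocount of 1, 131 and 81 with no filter, 18 and 24 with the stricter filter, 128 and 72 with upper-quartile scaling and 5 and 4 with voom on the estimated reads. TMM scaling gave 85 more positive and a pseudocount of 30 gave 66 more negative. Leaving out 1 library gave 12 to 197 more positive and 11 to 259 more negative genes. The fit without AL MM17, chosen after the data were seen, gave 1616 higher and 1079 lower genes.

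With the MM number as a replicate block 996 genes were higher and 794 lower, and 5 and 3 changed between the days. Deviations of NE and EN libraries of the same number correlated at 0.022 (MM17) and -0.073 (MM18). With 2 EN libraries the deviations of EN mirror each other, so these values cannot show whether same-numbered libraries shared grains or a batch. The planned count tests (the quasi-likelihood and Wald tests) were not run, since whole reads were recovered for only 85.5 to 95.7% of the values under 100 reads.

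Of the 74 genes followed, 18 kept their side of the threshold and 56 lost their call when the compared libraries were fitted alone. Without NE MM17 63 kept theirs, but passing that fit was part of the choice of many of the 74. That count therefore says little about NE MM17. The value of 1 read limits genes low in EN, where a value of 0 allows up to 11.5 units. It was 1.63 units in EN MM17 and 3.83 in EN MM18, against 0.0441 to 0.504 in NE libraries. It depends on the authors' scaling as well as on depth. The signal summed to 5.07e+07 and 3.90e+07 units in EN MM17 and EN MM18, against 4.29e+06 to 9.72e+06 in NE libraries. The cause of these changes was not tested.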

Other observations

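Several groups were not described above, and their counts stand against 6.68% higher and 4.30% lower over all genes. Of 412 genes of transmembrane transport, 29 were higher in NE than in EN and 12 lower (28 and 12 without NE MM17, 11 and 14 without EN MM17). Of 182 genes of protein folding, 17 were higher and 9 lower (12 and 10 without NE MM17, 10 and 4 without NE MM04). Of 159 genes of lipid metabolism, 16 were higher and 11 lower (16 and 9 without NE MM17, 9 and 11 without NE MM04, 4 and 6 without EN MM17, 11 and 4 without EN MM18). Of 154 genes of intracellular protein transport, 11 were higher and 9 lower (10 and 9 without NE MM17, 6 and 6 without NE MM04, 12 and 6 without EN MM17, 2 and 5 without EN MM18). Of 66 genes of metal ion transport, 8 were higher and 4 lower (7 and 3 without NE MM17, 3 and 3 without NE MM04, 0 and 1 without EN MM17). Of 301 genes of ribosome structure, 7 were higher in NE than in EN and 1 was lower, with a median of -0.15, and 6 and 4 without NE MM17. Of 52 tested photosynthesis genes, 2 were higher and 0 lower (7 and 0 at an unadjusted p under 0.05, limma), and 5 were higher without NE MM17. Os05g0560000 of these had 139, 37.8 and 63.1 units in NE libraries MM04, MM17 and MM18, against 0 and 0 in EN libraries MM17 and MM18 (adjusted p = 0.00827). Of 52 tested lipid transport genes, 3 were higher and 0 lower (16 and 0 at an unadjusted p under 0.05, limma), and 8 were higher without NE MM18, 7 without EN MM18 and 1 without EN MM17. Of the study's transcription factor families, HD-ZIP had 4 higher and 0 lower of 19 (4 and 1 at an unadjusted p under 0.05, 1 and 0 without EN MM17, 2 and 0 without NE MM04, 2 and 1 without EN MM18) and NAC had 2 higher and 5 lower of 32 (4 and 6 without NE MM17, 1 and 1 without NE MM04, 2 and 1 without NE MM18, 1 and 2 without EN MM17, 2 and 2 without EN MM18).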
